A study of Mus musculus with 12 samples.

Results

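The lung response of female mice to hyperoxia was taken from the 3 arrays of females kept in hyperoxia for 48 h and the 3 arrays of females kept in room air. These are 6 of the 12 arrays of the series, chosen by their labels alone, and the response was described across the 19938 genes that have 1 symbol in the annotation of the array. All mice were wild type C57BL/6J animals aged 8 to 10 weeks. Every array held lung RNA pooled from 4 mice of 1 group, so replicate error here is the variation among pools, not among mice, and the labels do not say which mice shared a cage or a day. The other 6 arrays, of males with the same exposures, entered the fit that estimates the spread and are otherwise used only where a female value is set beside the male one.

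Hyperoxia raises the production of reactive oxygen species inside lung cells, and the thin alveolar epithelium and the capillary endothelium beneath it are known as its first targets. Cells answer with several stress programmes. NRF2 switches on antioxidant enzymes, ATF4 switches on the synthesis and uptake of amino acids when translation is slowed, p53 answers DNA damage, and HSF1 answers unfolded protein. Type II alveolar cells make surfactant and replace injured type I cells, passing through a keratin-rich intermediate state.

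Values are log2 expression levels, and a difference of 1 on this scale is a doubling. A gene was called higher or lower in hyperoxia when the Benjamini-Hochberg adjusted p from limma was under 0.05 and the fold change was at least 1.4. Of the 19938 genes, 948 were called higher, which is 4.75% of the genes tested, and 732 were called lower, which is 3.67%, or 8.43% in either direction. Over all 35556 transcript clusters of the array, named or not, 6.52% were called, 3.59% higher and 2.93% lower. The median log2 fold change of all genes was -0.02. At 2-fold or more, 178 genes were higher and 75 were lower. In 18.1% of the genes every hyperoxia pool lay above every room air pool, and in 19.4% every one lay below. The groups are said not to overlap in these cases. Gene lists are described by how many members were called and by their median, to be read against these shares and this median, and no list was tested as a set.

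The labels were borne out by the genes of the sex chromosomes. Xist, the transcript that silences 1 X chromosome, lay between 12.52 and 12.85 on the 6 female arrays and between 6.63 and 7.77 on the 6 male arrays, and the Y-linked Uty lay between 5.21 and 5.95 in females and between 9.34 and 9.94 in males. Correlations across clusters ran from 0.985 to 0.993 among the room air arrays, from 0.979 to 0.993 among the hyperoxia arrays and from 0.972 to 0.988 between the groups. The first principal component of the 6 arrays (42.5% of the variation) did not separate the treatments, and the second (36.9%) did. Pools differed in the levels of squamous epithelium and heart muscle genes, and which tissue gave this RNA was not tested. The mean of 21 squamous epithelium genes was 10.18, 7.42 and 9.69 in room air pools 1, 2 and 3 and 10.53, 8.49 and 8.09 in hyperoxia pools 1, 2 and 3. The mean of 20 heart muscle genes was 9.96, 9.35 and 10.17 in room air and 9.81, 8.42 and 9.28 in hyperoxia. No gene of either list was called, with medians of -0.09 and -0.73. In the plot of list means by array these lists spread widely within a group, while the lists of the stress programmes lay close together within each group. Of the list counts above 3, the lower count of the interferon list was the 1 that changed by more than 1.5 times when an array was left out or when either mean was a covariate. Counts of 1 to 3 often rest on genes near the fold threshold.

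**Figure D1:**
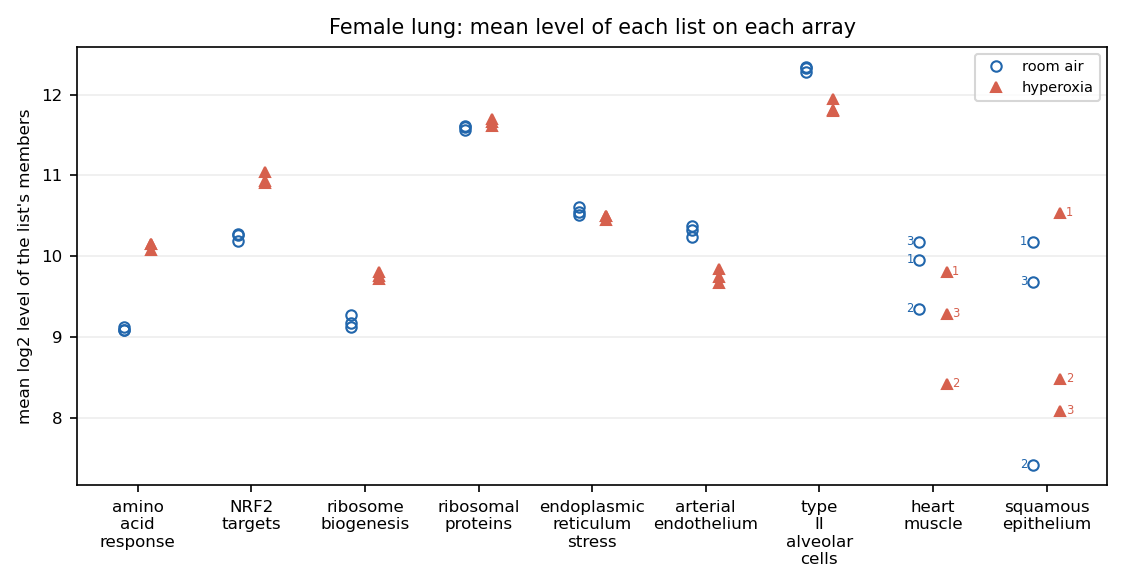
Mean log2 level (y axis) of the members of 9 gene lists on each of the 6 female arrays, open circles for the 3 room air pools and triangles for the 3 hyperoxia pools. The pools of a group lie close together for the amino acid response (9.09 to 9.13 in room air, 10.08 to 10.16 in hyperoxia) and far apart for heart muscle and squamous epithelium, where pool numbers are printed.

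The 20 largest rises outside the genes that the study itself names covered stress proteins, transcription factors, enzymes, carriers, a chemokine and receptors. Nupr1, a small chromatin protein induced by stress, read 11.24, 11.29 and 11.32 in the room air pools and 13.21, 13.16 and 13.25 in the hyperoxia pools, a log2 fold change of 1.92 (standard error 0.06, adjusted p = 1.22e-07). Ampd3, an AMP deaminase, read 10.02, 10.04 and 10.10 in room air and 11.70, 11.83 and 11.81 in hyperoxia (log2 fold change 1.73, standard error 0.06, adjusted p = 1.22e-07). Slc19a2, a thiamine transporter, rose from 8.38, 8.29 and 8.37 to 10.02, 10.00 and 10.14 (1.71). In all of these the groups lay far apart compared with the spread of their pools. Odc1, which makes the polyamine putrescine, rose by 1.75, Nes, the intermediate filament nestin, by 1.81, and Gadd45g, a stress-induced growth arrest gene, by 1.74. Il6, the cytokine of the acute phase response, had the largest rise of this set at 1.94, from 5.12, 5.26 and 4.79 to 6.39, 6.98 and 7.62, but its room air values lie near the bottom of the range of the array and its hyperoxia pools spread by more than 1 unit.

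The 20 largest falls covered receptors, a channel, interferon-induced GTPases, TNF family genes, airway genes and enzymes. Aplnr, the apelin receptor, read 10.61, 10.73 and 10.70 in room air and 8.20, 8.42 and 8.22 in hyperoxia, and Kcnj13, a potassium channel, read 10.85, 11.10 and 11.14 against 8.79, 8.95 and 8.95, a log2 fold change of -2.13 (standard error 0.10, adjusted p = 9.75e-07). Glp1r, the receptor for glucagon-like peptide 1, fell from 12.53, 12.63 and 12.56 to 10.64, 10.51 and 10.67 (-1.97, standard error 0.10, adjusted p = 1.63e-06). The 20 rises and the 20 falls were taken only from genes whose groups did not overlap, so this trait is no result for them. Tmem100, an endothelial membrane protein, fell by 1.64, Lgi3, a secreted leucine-rich protein, by 1.58, Aox3, an aldehyde oxidase, by 1.47 and Gmnc, a regulator of multiciliated cell fate, by 1.41 on the log2 scale. Among called genes at high levels, Mt2, a metallothionein that binds zinc, rose by 1.89, Slc3a2, the shared heavy chain of amino acid transporters, by 0.78 and Tpm4, a tropomyosin, by 0.68, while Lyz1, a lysozyme, fell by 1.06 and Scn7a, a sodium channel of the lung, by 0.76.

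**Figure D2:**
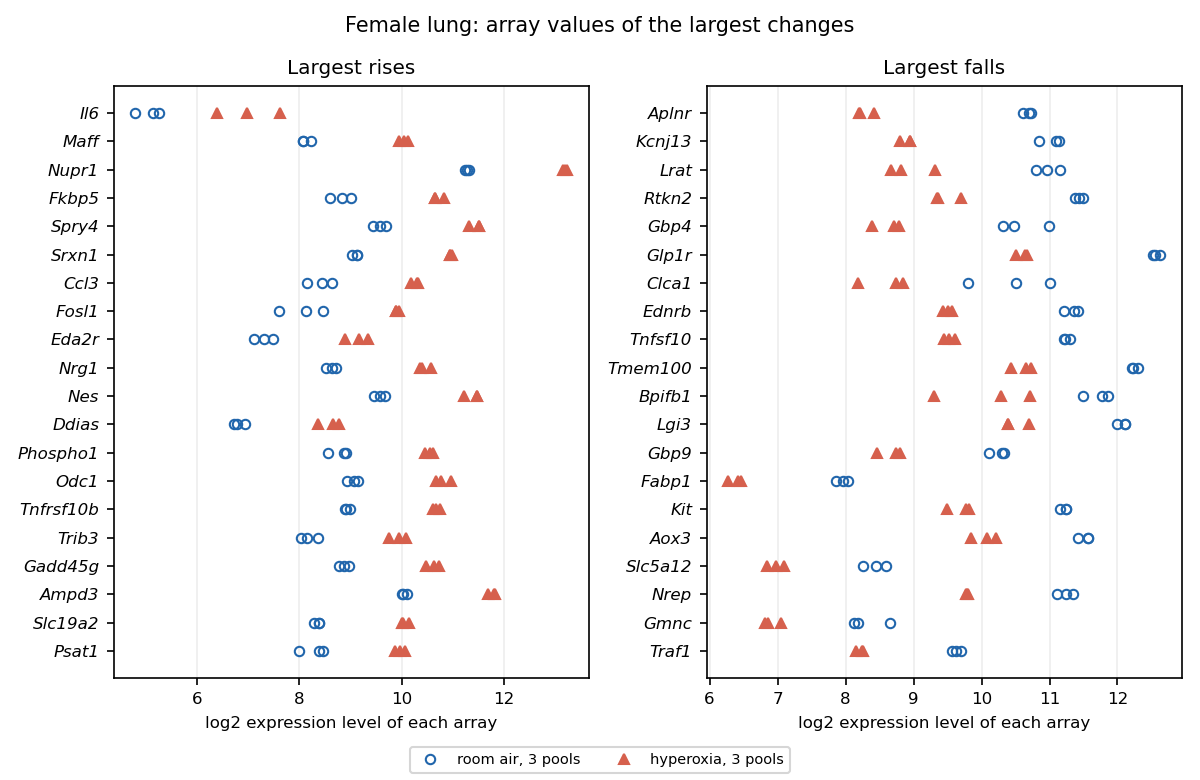
Log2 expression level (x axis) of the 20 largest rises and the 20 largest falls that did not overlap between the groups and that the study does not name, with open circles for the 3 room air pools and triangles for the 3 hyperoxia pools. Nupr1 has all hyperoxia pools above 13 and all room air pools below 11.4, while Il6 and Clca1 show a wide spread within a group.

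Genes of the amino acid response, which ATF4 switches on, had the highest median of the pathway lists. Of 40 measured members 31 were called higher and 0 lower, with a median log2 fold change of 0.88 beside -0.02 for all genes. The promoters of 3 members with the ATF4 composite site are shown because this is the site that ATF4 is known to bind, and a match does not say that it acts here. The site was searched as TGATGNAA on both strands in the 300 bases around each RefSeq start (250 before and 50 after it, build GRCm38.p6), and it occurs in 3.97% of all 32851 such windows. It was found in 5 of the 25 called members that have a window (Asns, Chac1, Nupr1, Slc7a11 and Trib3) and in 4 of 8 others (Fgf21, Pck2, Slc1a4 and Vldlr). The stretches below are read along the gene, with the site in capitals. They lie at chr3:50443623-50443709 (minus strand), chr6:7693210-7693262 (minus strand) and chr7:126625543-126625610 (minus strand).
Slc7a11: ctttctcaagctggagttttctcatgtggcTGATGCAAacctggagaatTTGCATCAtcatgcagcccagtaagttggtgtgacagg
Asns: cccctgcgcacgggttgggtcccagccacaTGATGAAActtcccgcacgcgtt
Nupr1: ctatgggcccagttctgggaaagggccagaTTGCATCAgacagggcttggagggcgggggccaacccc

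The factors themselves came first among the roles of this list, with 7 of 7 called higher. Atf4 read 9.53, 9.52 and 9.67 in room air and 10.62, 10.76 and 10.66 in hyperoxia (log2 fold change 1.10, standard error 0.06, adjusted p = 3.00e-06), and Trib3, a pseudokinase that restrains ATF4, rose from 8.16, 8.37 and 8.03 to 9.75, 10.08 and 9.95 (1.74). Atf5 rose by 0.93 and Ddit3, the factor CHOP, by 0.84. Enzymes of serine and one-carbon synthesis rose in 6 of 8 cases. Psat1, which makes phosphoserine, rose from 8.46, 7.99 and 8.39 to 9.96, 9.88 and 10.07 (1.69), Phgdh, the first enzyme of the pathway, by 0.98, and Shmt2 and Aldh1l2, which handle folate-bound carbon in mitochondria, by 1.06 and 1.66. Psph, the enzyme that finishes serine, read 8.41, 8.58 and 8.30 in room air and 8.32, 8.55 and 8.37 in hyperoxia and was not called. Slc7a11, the cystine carrier, went from 6.97, 6.90 and 6.99 to 10.40, 9.96 and 9.91, the largest change of any gene named here (3.14, standard error 0.13), and Slc7a1, a carrier of arginine and lysine, rose by 1.56. Of 11 transporters 9 were higher, and Slc38a1, a glutamine carrier, was not called (0.07). Cth, which makes cysteine, rose by 1.51 and Chac1, which breaks down glutathione, by 1.55. Sesn2, an inhibitor of mTORC1 under amino acid shortage, rose by 1.40, while Fgf21, a hormone induced by ATF4 in liver, was at 0.00 and was not called.

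Many antioxidant genes that NRF2 controls rose, and the factor itself was not called. Of 37 measured NRF2 targets 22 were called higher and 0 lower, with a median of 0.53. In the glutathione and thioredoxin system 8 of 10 were higher, with a median of 1.10, and of the genes of NADPH supply 2 of 5 were higher, with a median of 0.33. The difference between the arms was not tested. The antioxidant response element, searched as TGACNNNGC on both strands, occurs in 12.4% of all windows and was found in 6 of 18 called members with a window (Gclm, Mafk, Pgd, Srxn1, Txnrd1 and Ugdh) and in 5 of 13 others. A pair of these is shown because both genes belong to the glutathione and thioredoxin arm, with the element in capitals as it stands on the opposite strand, at chr3:122245393-122245461 (plus strand) and chr10:82859084-82859152 (plus strand).
Gclm: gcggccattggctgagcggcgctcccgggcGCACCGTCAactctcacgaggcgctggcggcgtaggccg
Txnrd1: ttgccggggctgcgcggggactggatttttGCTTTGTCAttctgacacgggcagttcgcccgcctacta

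Srxn1, the sulfiredoxin that restores oxidized peroxiredoxins, read 9.04, 9.14 and 9.13 in room air and 10.95, 10.98 and 10.96 in hyperoxia. Gclc, the catalytic subunit for glutathione synthesis, rose from 11.89, 12.05 and 12.05 to 13.27, 13.34 and 13.28 (1.30, standard error 0.06, adjusted p = 6.40e-07), Gclm, its regulatory subunit, by 1.01, and Txnrd1, thioredoxin reductase, by 1.20. Gpx2, a glutathione peroxidase of epithelia, rose by 1.51. In each of these genes the pools of the groups did not overlap, which holds in the higher direction for 18.1% of all genes. Txn1, the thioredoxin that Txnrd1 recharges, read 13.62, 13.59 and 13.58 against 13.64, 13.51 and 13.66 and was not called. Of the NADPH enzymes Pgd rose by 0.84 and Taldo1 by 0.59, both of the pentose phosphate pathway, while Idh1, cytosolic isocitrate dehydrogenase, had -0.37 with an adjusted p of 0.0150 and missed the fold threshold. Nfe2l2, which encodes NRF2, was at 0.26 and Keap1, the adaptor that marks NRF2 for degradation, at 0.05, and neither was called, whereas Mafk, a DNA-binding partner of NRF2, rose by 1.10.

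Targets of p53 rose in part, with the highest share called among cell cycle genes. Of 30 measured members 14 were called higher and 0 lower, with a median of 0.49. Regulators of p53 were higher in 4 of 7 cases and cell cycle genes in 6 of 8, whereas cell death genes were higher in 3 of 10 and DNA repair genes in 1 of 5, and the difference between these roles was not tested. Zmat3, an RNA-binding protein, read 8.59, 8.71 and 8.74 in room air and 10.10, 10.15 and 10.34 in hyperoxia (1.52, standard error 0.10, adjusted p = 5.59e-06). Plk3, a stress kinase, rose by 1.60, Phlda3, an inhibitor of AKT, by 1.41, Mdm2, the ligase that degrades p53, by 0.87 and Ccng1, cyclin G1, by 0.88. Among cell death genes Eda2r, a receptor of the TNF receptor family, went from 7.48, 7.11 and 7.30 to 9.17, 8.89 and 9.35 (1.84) and Tnfrsf10b, the receptor of TRAIL, rose by 1.75. The BH3-only killers Bbc3 and Pmaip1 were not called (0.10 and 0.09), nor was the death receptor Fas (0.10). In DNA repair Polk, a polymerase that copies past damage, rose by 1.03, while Ddb2 and Xpc, which find ultraviolet-type damage, had -0.33 and -0.21. Tnfsf10, the ligand of Tnfrsf10b, fell by 1.73.

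Among 300 microRNA genes 8 were called higher and 5 lower, with a median of -0.01, and the highest was Mir34a, a target of p53. The probes read RNA at the precursor locus, and mature microRNA was not measured. Mir34a read 6.33, 6.36 and 6.35 in room air and 7.35, 7.65 and 7.79 in hyperoxia (1.25, standard error 0.11, adjusted p = 3.14e-05). Mir28a and Mir708, whose mature 5p strands share the seed AGGAGCU, rose by 0.65 and 0.70, and Mir19a and Mir20a, of 1 cluster on chromosome 14, had 0.70 and 0.49. The calls of Mir19a and Mir20a were lost without room air replicate 1 or 2 and without 1 of the hyperoxia pools. That of Mir19a was also lost with the heart muscle mean as a covariate. The calls of Mir34a, Mir28a, Mir708, Mir181b-1 and Mir15a held in every setting run. Mir181b-1 fell from 8.80, 8.57 and 9.02 to 7.66, 7.55 and 8.05 (-1.04, standard error 0.18, adjusted p = 0.00227). Mir15a fell by 0.66. Mature sequences of RefSeq (build GRCm38.p6) are shown for the locus with the largest rise, the locus with the largest fall and the pair with a shared seed, with the seed, bases 2 to 8 from the 5′ end, in capitals.
mmu-miR-34a-5p: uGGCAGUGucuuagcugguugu
mmu-miR-28a-5p: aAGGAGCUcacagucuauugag
mmu-miR-708-5p: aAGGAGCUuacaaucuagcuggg
mmu-miR-181b-5p: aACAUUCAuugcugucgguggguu

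The chaperones that rose were mainly those of mitochondria and the chaperonin ring, and endoplasmic reticulum stress genes took no common direction. Of 35 heat shock proteins and partners 11 were called higher and 1 lower, with a median of 0.29. Mitochondrial chaperones and chaperonin subunits were higher in 7 of 12 cases, with a median of 0.52. Hspa9, the mitochondrial HSP70, read 11.19, 11.15 and 11.30 in room air and 12.38, 12.45 and 12.48 in hyperoxia (1.23, standard error 0.06, adjusted p = 8.00e-07), and Hspd1 and Hspe1, which form the mitochondrial folding chamber, rose by 0.60 and 0.61. Hspa1a, the inducible HSP70, rose from 9.22, 9.30 and 9.45 to 10.25, 10.21 and 10.41 (0.97). Hspa8, the constitutive HSP70, and Dnajb1, a partner induced by heat, were not called (-0.04 and 0.06), and Dnaja4 fell by 0.49. The call of Dnaja4 was lost without room air replicate 3 and without hyperoxia replicate 1. It was also lost with arrays centred on their median and with the heart muscle mean as a covariate. The call of Hspe1 was lost without the pools numbered 1.

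Hspd1 and Hspe1 stand head to head and share a promoter, which is shown because both genes rose. The heat shock element, searched on both strands as GAA, TTC and GAA with 2 free bases between each, occurs in 0.603% of all windows. It was found in the windows of Hspd1 and Hspe1, which overlap, among 9 called members with a window, and in 3 of 21 others (Chordc1, Dnajb6 and Hsph1). The stretch of Hspd1 at chr1:55088029-55088106 (minus strand) holds overlapping matches, in capitals.
Hspd1: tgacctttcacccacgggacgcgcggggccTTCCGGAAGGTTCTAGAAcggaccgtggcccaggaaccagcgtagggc

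Of 32 endoplasmic reticulum stress genes 2 were called higher and 2 lower, with a median of -0.11. Hspa5, the chaperone BiP that marks this stress, read 12.03, 12.17 and 12.13 in room air and 12.18, 12.14 and 12.11 in hyperoxia (0.04, standard error 0.05). Hsp90b1, the HSP90 of the same compartment, fell by 0.50 and Ero1b, a disulfide-forming oxidase, by 0.51, while Herpud1, of protein degradation there, rose by 0.54 and Ern1, the sensor IRE1, by 0.52. The calls of Hsp90b1 and Ero1b were lost with arrays centred on their median and without hyperoxia replicate 2. That of Hsp90b1 was also lost without room air replicate 3, and that of Ero1b with a further quantile normalization. The endoplasmic reticulum stress element, searched on both strands as CCAAT and CCACG with 9 free bases between, occurs in 0.119% of all windows and in 10 of the 26 members with a window that were not higher, Hspa5 among them. Its promoter at chr2:34771995-34772073 (plus strand) is shown for contrast with the genes above, with the element in capitals.
Hspa5: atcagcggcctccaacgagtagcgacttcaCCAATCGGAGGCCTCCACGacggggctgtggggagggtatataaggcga

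Genes that assemble ribosomes rose, and all but 1 gene of the ribosomal proteins were not called. Of 68 measured ribosome biogenesis genes 39 were called higher and 0 lower, with a median of 0.57, and 67 of 68 had a positive value. Of 52 ribosomal protein genes 1 was called higher and 0 lower, with a median of 0.05. The small subunit processome had 16 of 24 members higher, large subunit assembly 14 of 25 and the RNA polymerase I machinery 3 of 7. Gnl3, the nucleolar GTPase nucleostemin, read 8.89, 8.67 and 9.16 in room air and 10.39, 10.33 and 10.48 in hyperoxia (1.49, standard error 0.13, adjusted p = 4.12e-05). Nop58, of the particles that methylate ribosomal RNA, rose by 1.28, Rrs1, needed for the large subunit, by 1.19 and Tsr1, of small subunit maturation, by 1.09. Rps6, a typical ribosomal protein gene, read 13.64, 13.59 and 13.73 in room air and 13.71, 13.51 and 13.68 in hyperoxia, so that its groups overlapped. Rpl12 was the 1 called member and rose by 1.24, and ribosomal protein genes have many near-identical pseudogenes that probes may also read. Several small nucleolar RNA host genes moved as well, with Snhg16 at 1.05 and Snhg5 at 0.67 higher and Snhg11 at -0.77 lower, and of 51 small nucleolar RNA genes 7 were higher and 1 lower. The E-box CACGTG, a site of MYC and of the clock factors, occurs in 7.15% of all windows and in 10 of 36 called and 3 of 23 other biogenesis genes with a window.

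**Figure D3:**
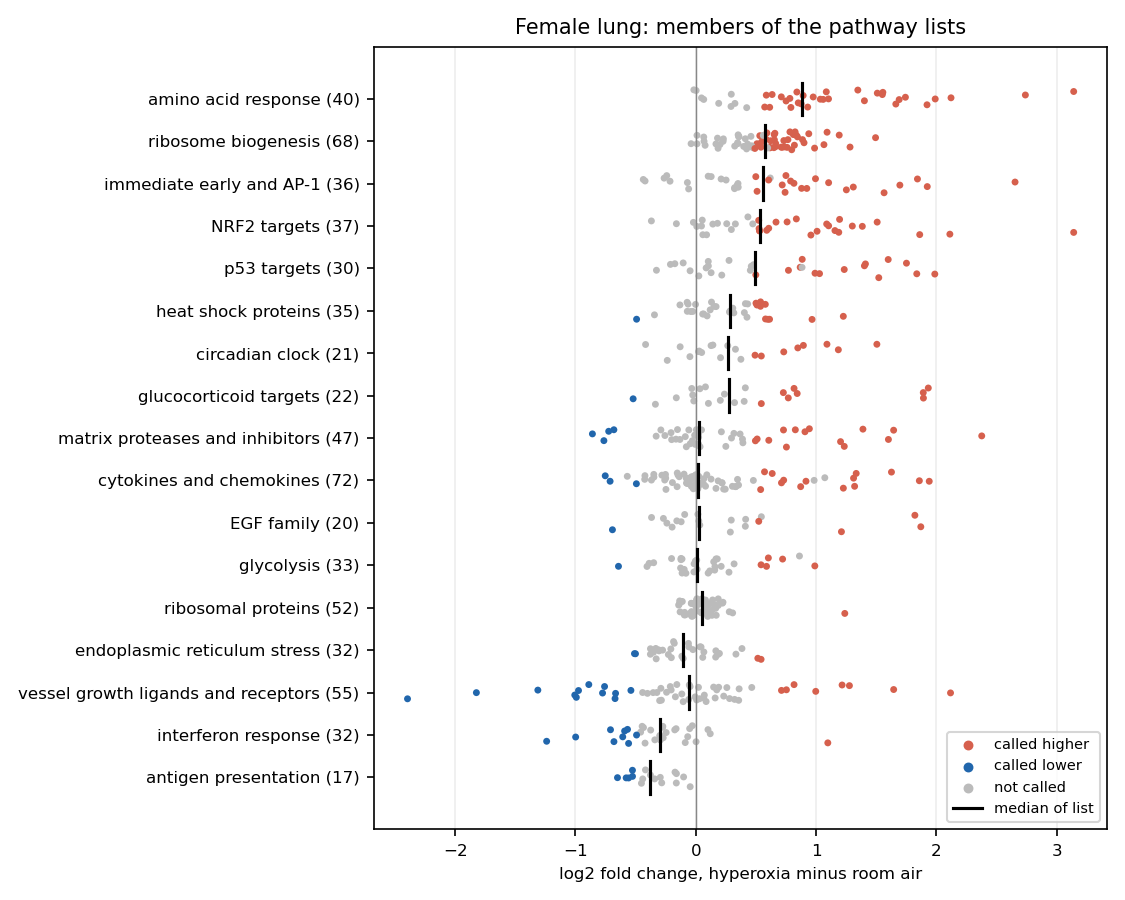
Difference of mean log2 level, hyperoxia minus room air (x axis) of each measured member of 17 pathway lists, with the number measured in brackets, red points called higher, blue points called lower, grey points not called and a black bar at the median. The ribosome biogenesis points lie almost wholly to the right of 0 (median 0.57) while those of the ribosomal proteins sit around 0 (median 0.05).

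Many immediate early genes rose, most often those of the AP-1 family itself, with 8 of 12 higher. Of 36 members of the AP-1 and immediate early list 19 were called higher and 0 lower, with a median of 0.56. Fos read 8.25, 8.22 and 8.25 in room air and 9.61, 9.89 and 9.92 in hyperoxia (1.57, standard error 0.11, adjusted p = 1.07e-05). Fosl1, a relative of Fos, rose from 8.13, 8.47 and 7.61 to 9.89, 9.94 and 9.90 (1.84, standard error 0.27), with room air pools that spread by nearly 1 unit. Jun, the usual partner of both, was not called (0.21), while Maff, a small MAF factor, rose by 1.92. Of 14 feedback genes 8 were higher. Dusp8, a phosphatase of stress kinases, rose by 1.31, and Zfp36, which destabilizes cytokine mRNA, by 0.82.

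In the EGF family 4 of 20 members were called higher and 1 lower, namely 2 of 8 ligands and 2 of 8 inhibitors higher and 1 of 4 receptors lower. Nrg1, a ligand of ERBB3 and ERBB4, read 8.51, 8.71 and 8.63 in room air and 10.36, 10.39 and 10.57 in hyperoxia (1.82, standard error 0.07, adjusted p = 3.05e-07). Hbegf, a ligand of EGFR, rose by 1.21, while Egf, Btc and Epgn were at 0.03, 0.03 and 0.02 and were not called. Erbb3, a receptor for Nrg1, fell from 10.12, 10.19 and 10.24 to 9.56, 9.38 and 9.53 (-0.69, standard error 0.07, adjusted p = 0.000120), and Egfr was not called (0.29). Spry4, a Sprouty inhibitor of this signalling, rose from 9.45, 9.58 and 9.70 to 11.31, 11.51 and 11.51 (1.87), and Spry2 by 0.52. The call of Spry2 was lost without hyperoxia replicate 2 and with the heart muscle mean as a covariate. By name, 6 of 31 Spry, Spred and Dusp genes were higher and 1 was lower, with a median of 0.02.

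Most of the clock genes that rose were repressors, 6 of them among the 10 E-box and REV-ERB repressors. Of 21 measured members 8 were called higher and 0 lower, with a median of 0.27. Ciart, a repressor of CLOCK and BMAL1, read 9.35, 9.28 and 9.41 in room air and 10.49, 10.36 and 10.46 in hyperoxia (1.09, standard error 0.10, adjusted p = 4.28e-05). Nfil3, a repressor acting on D-box genes, rose by 1.19, Bhlhe40 and Bhlhe41, which compete for E-boxes, by 0.89 and 0.85, Cry1 by 0.73, Per1 by 0.54 and Per2 by 0.49. The call of Per2 was lost without room air replicate 1, without hyperoxia replicate 1 and with a further quantile normalization. Wee1, the mitotic kinase under clock control, had the largest rise of the list at 1.51. Among the clock genes not called, Nr1d1, which encodes REV-ERB alpha, was at -0.13, Dbp at 0.02 and Arntl, which encodes BMAL1, at 0.27. Per3 had -0.42 (adjusted p = 0.00417), short of the fold threshold. The labels do not state the hour at which lungs were taken, and a shift in sampling time was not tested. Ciart is shown because its promoter holds the most E-boxes of the called clock genes, at chr3:95882246-95882365 (minus strand), with each CACGTG in capitals. The E-box was found in 4 of 5 called and 1 of 12 other clock genes with a window.
Ciart: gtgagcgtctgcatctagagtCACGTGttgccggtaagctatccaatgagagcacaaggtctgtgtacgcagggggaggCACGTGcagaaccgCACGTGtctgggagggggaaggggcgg

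Some targets of the glucocorticoid receptor rose. Of 22 genes 8 were called higher and 1 lower. Fkbp5, a cochaperone that the receptor induces, read 8.60, 8.84 and 9.02 in room air and 10.83, 10.65 and 10.65 in hyperoxia, and Zbtb16, a zinc finger factor, rose by 0.84, Cebpd by 0.77 and Sgk1, a kinase that acts on sodium transport, by 0.73. Tsc22d3, which encodes GILZ and is among the most used markers of this receptor, read 10.58, 10.63 and 10.80 against 10.84, 10.61 and 10.66 and was not called. Mt2 and Per1 belong to this list too and also answer zinc and the clock.

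Of 72 cytokines and chemokines 14 were called higher and 3 lower, with a median of 0.02, and CC chemokines held 7 of the rises among 16 measured. Ccl3 read 8.44, 8.63 and 8.15 in room air and 10.17, 10.31 and 10.32 in hyperoxia (1.86, standard error 0.12, adjusted p = 5.53e-06). Ccl2 and Ccl7, ligands of CCR2, rose by 1.23 and 1.31, Ccl20, a ligand of CCR6, by 1.32 and Cxcl16 by 0.92, and Ccr2 itself had -0.49 (adjusted p = 0.0545) and was not called, though it was with the replicate number as a block. The groups did not overlap for any of the chemokines called, which holds in the higher direction for 18.1% of all genes. The neutrophil chemokine Cxcl5 rose by 0.87 and Cxcl1 was not called (0.36). Tnf read 7.49, 7.75 and 7.07 in room air and 7.56, 8.08 and 7.57 in hyperoxia and was not called, nor were Ifng (-0.02) and Il17a (0.00). In the IL-6 family Il6 and Lif rose, Lif by 1.33, while Lifr, the receptor of LIF, fell from 10.95, 10.99 and 11.12 to 10.30, 10.11 and 10.29 (-0.79) and Il6ra and Il6st, the receptor chains for IL-6, were not called (0.00 and -0.01). Il15 fell by 0.75, Hgf, a growth factor for epithelium, by 0.71 and Il33, an alarmin, by 0.49. The call of Il33 was lost without room air replicate 3, without hyperoxia replicate 2 and with arrays centred on their median.

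Of 32 interferon-responsive genes 9 were called lower and 1 higher, with a median of -0.30, and 4 of 32 had a positive value. Without hyperoxia replicate 2 the number lower was 5. Guanylate-binding proteins, GTPases induced by interferon gamma, stood out by name, with 7 of 8 measured Gbp genes lower, the least of them Gbp11 at -0.73. Gbp4 read 10.99, 10.47 and 10.32 in room air and 8.79, 8.39 and 8.71 in hyperoxia (-1.97, standard error 0.19, adjusted p = 5.71e-05), Gbp9 fell by 1.58, Gbp7 by 1.24 and Gbp5 by 0.92. The groups of these genes did not overlap, which holds in the lower direction for 19.4% of all genes. Gbp genes lie in families of near-identical copies that probes may not separate. Rsad2, the antiviral protein viperin, fell by 0.68 and Ifit1 was at -0.09. Ifit3 went the other way, from 10.74, 10.60 and 10.80 to 11.86, 11.74 and 11.83 (1.10). Of 17 antigen presentation genes 5 were lower and 0 higher, with a median of -0.38, among them Ciita, the master factor of class II, at -0.65 and H2-Aa, a class II chain, at -0.56, while B2m, the light chain of class I, was at -0.05 and was not called.

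Marker lists of blood and immune cells differed in how many members were called. None of the 15 B cell, 15 T cell or 12 natural killer cell markers was called, with medians of -0.21, -0.20 and -0.20 (limma calls at an adjusted p under 0.05 and the fold threshold). Of 18 neutrophil markers 1 was higher and 1 lower. The 1 lower, Hdc, which makes histamine, read 10.43, 10.49 and 10.37 in room air and 9.15, 9.03 and 9.16 in hyperoxia (-1.32, standard error 0.06, adjusted p = 6.97e-07), while the neutrophil genes S100a8 and S100a9 had -0.52 and -0.44 and were not called. Of 17 alveolar macrophage markers 6 were higher and 1 lower, with Cd68 at 0.73, Ccl6 at 0.73 and the scavenger receptor Marco at 0.61. Fabp1, which was in that list, fell by 1.57, and its call was lost without the pools numbered 1. Of 17 interstitial macrophage and monocyte markers 0 were higher and 3 lower, with a median of -0.07. Among these, Csf1r, a growth factor receptor of macrophages, fell by 0.62 and Treml4, a gene of patrolling monocytes, by 0.75.

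Most markers of type II alveolar cells fell, and most genes listed for the keratin-rich injured state of the epithelium rose. Of 19 type II markers 11 were called lower and 1 higher, with a median of -0.50, while of 17 injured epithelium genes 11 were higher and 0 lower, with a median of 0.73. In whole lung RNA fewer cells of a type and less RNA per cell cannot be told apart. Which cells gave the rises of the injured list was not tested, and its member Lcn2 is also on the neutrophil list. The surfactant genes were unequal. Sftpa1 read 13.59, 13.65 and 13.63 in room air and 12.91, 12.98 and 13.04 in hyperoxia (-0.64, standard error 0.05, adjusted p = 3.09e-05), whereas Sftpb read 13.43, 13.55 and 13.50 against 13.40, 13.47 and 13.53 and Sftpc had -0.23, both without a call. Lpcat1, which builds surfactant phospholipid, fell by 0.90, Abca3, which loads it into lamellar bodies, by 0.74, Muc1, an apical mucin, by 0.91 and Egfl6 by 1.11. Nkx2-1, the transcription factor of lung epithelium, fell from 10.66, 10.69 and 10.75 to 10.01, 10.10 and 10.15 (-0.61, standard error 0.06, adjusted p = 7.85e-05). Ctsh, a protease that processes surfactant protein, was the 1 member that rose, by 0.61.

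Krt8 read 11.82, 11.83 and 11.79 in room air and 12.65, 12.82 and 12.73 in hyperoxia (0.92, standard error 0.06, adjusted p = 4.98e-06), and its partners Krt18 and Krt19 rose by 0.84 and 0.90. Anxa3, an annexin, rose by 0.98. Krt19 is also made by mesothelium and squamous epithelium, and which cells gave its rise was not tested. Of those lists 1 of 10 and 0 of 21 members were called, Krt19 itself being the 1 called on the mesothelium list. The squamous mean differed widely between pools (7.42 to 10.18 in room air, 8.09 to 10.53 in hyperoxia), so its members were hard to call. Type I markers took no common direction, with 4 of 17 higher and 2 lower. Rtkn2, a marker of type I cells, fell from 11.37, 11.44 and 11.50 to 9.35, 9.36 and 9.69 (-1.97, standard error 0.11, adjusted p = 3.32e-06), yet Ager and Hopx, also on that list, had -0.26 and -0.09 and were not called. Timp3, an inhibitor of metalloproteinases in that list, rose by 0.61.

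Transport and junction genes of the epithelium had few calls, in both directions. Of all genes 4.75% were higher and 3.67% lower. The ion and water transport list had 7.14% higher and 10.7% lower, and the tight junction list 7.41% and 3.7%. Of 28 ion and water transport genes 2 were higher and 3 lower, and the sodium channel subunits Scnn1a, Scnn1b and Scnn1g were at 0.37, -0.10 and -0.02 without a call. Of 8 chloride transport genes 1 was higher and 1 lower. Cftr, the cystic fibrosis channel, rose from 8.46, 8.17 and 8.62 to 9.51, 9.35 and 9.59 (1.07) and Slc26a9 fell from 10.96, 10.97 and 11.01 to 9.96, 9.88 and 10.01 (-1.03). The water channel Aqp1, of capillaries, fell by 0.69. Of 27 tight junction genes 2 were higher and 1 lower, with Cldn12 at 0.67 and Cldn10 at -0.82. In the airways 6 of 19 club and mucous cell markers were lower and 0 higher, with a median of -0.48. Chad, chondroadherin, fell from 10.64, 10.63 and 10.85 to 9.63, 8.87 and 9.52 (-1.37), while Scgb1a1, the secretoglobin of club cells, had -0.21 and was not called.

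**Figure D4:**
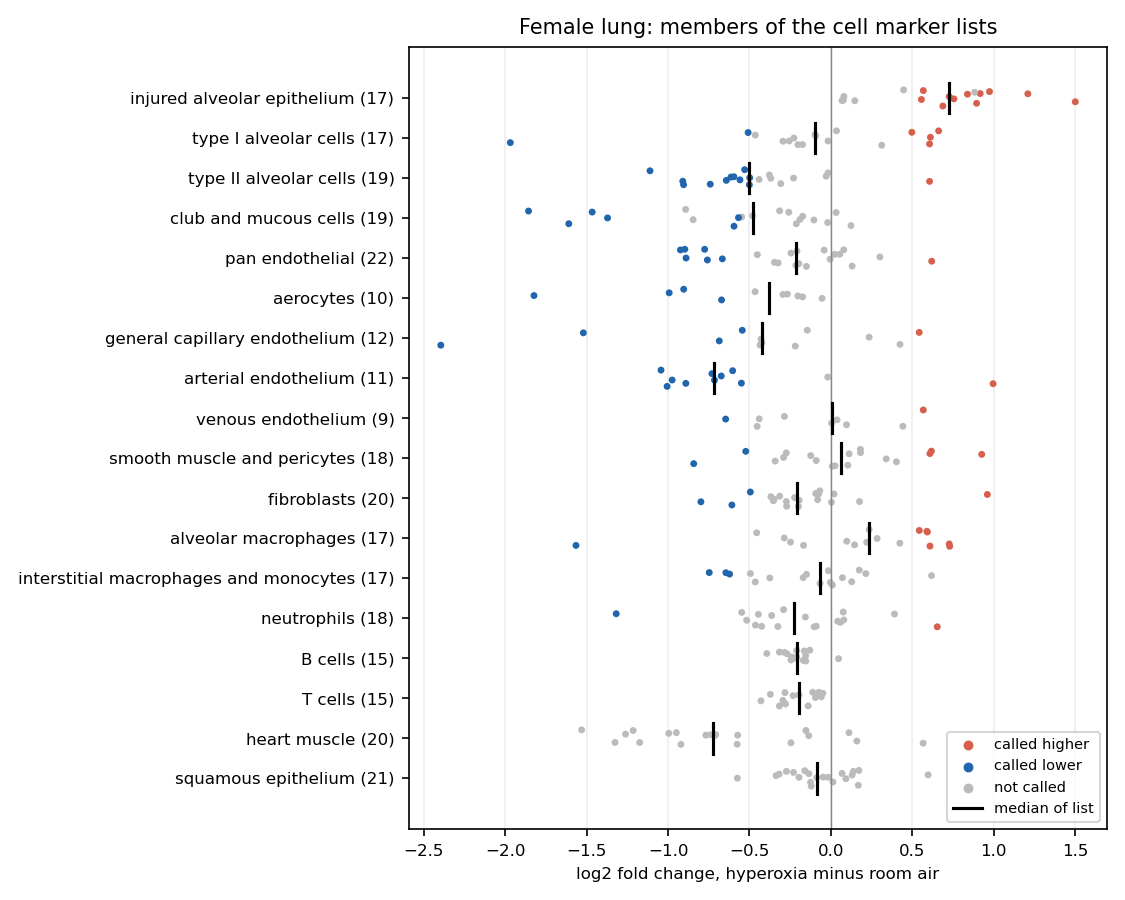
Difference of mean log2 level, hyperoxia minus room air (x axis) of each measured member of 18 cell marker lists, with the number measured in brackets, red points called higher, blue points called lower, grey points not called and a black bar at the median. Injured epithelium lies to the right (median 0.73), type II and arterial markers to the left (medians -0.50 and -0.71), and heart muscle to the left with no member called.

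In vessels most arterial markers fell, and most markers common to all endothelium were not called. Of 22 pan-endothelial markers 6 were lower and 1 higher, and Cdh5, the cadherin of endothelial junctions, read 13.04, 13.08 and 13.08 in room air and 13.02, 13.07 and 13.09 in hyperoxia. Cldn5, a claudin of endothelium, was at 0.02 and Pecam1 at -0.35, without a call. Of 11 arterial markers 9 were lower and 1 higher, with a median of -0.71. Gja4, a connexin, fell from 9.65, 9.61 and 9.68 to 8.50, 8.57 and 8.74 (-1.04, standard error 0.13, adjusted p = 0.000257), Dll4, a Notch ligand, by 1.01, Hey1, a Notch target, by 0.97, and Cxcr4, Efnb2 and Sox17 by 0.89, 0.73 and 0.71. Mgp, a matrix protein of arteries, read 12.67, 12.67 and 12.80 against 12.72, 12.63 and 12.72 and was not called. Venous markers numbered 1 higher and 1 lower of 9, with a median of 0.01, and lymphatic markers 1 higher of 8, the hyaluronan receptor Lyve1, which rose from 12.26, 12.65 and 12.59 to 13.37, 13.37 and 13.38 (0.88). Of capillary genes, 4 of 10 aerocyte markers and 4 of 12 general capillary markers were lower. Kit, a receptor of general capillary and mast cells, fell by 1.52, and which cells gave this fall was not tested. The mast cell genes Cpa3 and Mcpt4 were at -0.40 and -0.18 without a call. Cpa3 ranged from -0.76 to -0.01 over the settings run.

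Set by role, several receptors of vessel growth and tone fell and several of their ligands rose. Of 55 genes 8 were higher and 12 lower, with a median of -0.05. Ednrb, an endothelin receptor, fell from 11.21, 11.35 and 11.42 to 9.57, 9.44 and 9.51 (-1.82, standard error 0.08), and Edn1, endothelin itself, rose from 9.93, 9.88 and 10.10 to 10.61, 11.12 and 11.16 (1.00, standard error 0.15, adjusted p = 0.00111). Edn3, another endothelin, fell by 0.54, a call that was lost without hyperoxia replicate 1. Calcrl, the receptor that carries adrenomedullin signals, fell by 0.77, and Adm and Adm2, its ligands, rose by 2.12 and 1.28. Kdr, the main receptor of VEGF, read 11.59, 11.74 and 11.79 in room air and 10.63, 10.72 and 10.79 in hyperoxia, and Nrp1, its coreceptor, fell by 0.67. Vegfa was at -0.12 and was not called, whereas Pgf, a ligand of FLT1, rose by 1.22. Tek and Tie1, the angiopoietin receptors, fell by 0.89 and 0.76 and Angpt1 and Angpt2 were at 0.07 and 0.17. Aplnr fell with its ligand Apln at -0.05. Npr3 and Npr2, natriuretic peptide receptors, fell by 1.31 and 0.67. The receptors Notch1 and Notch4 were at 0.03 and -0.10.

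**Figure D5:**
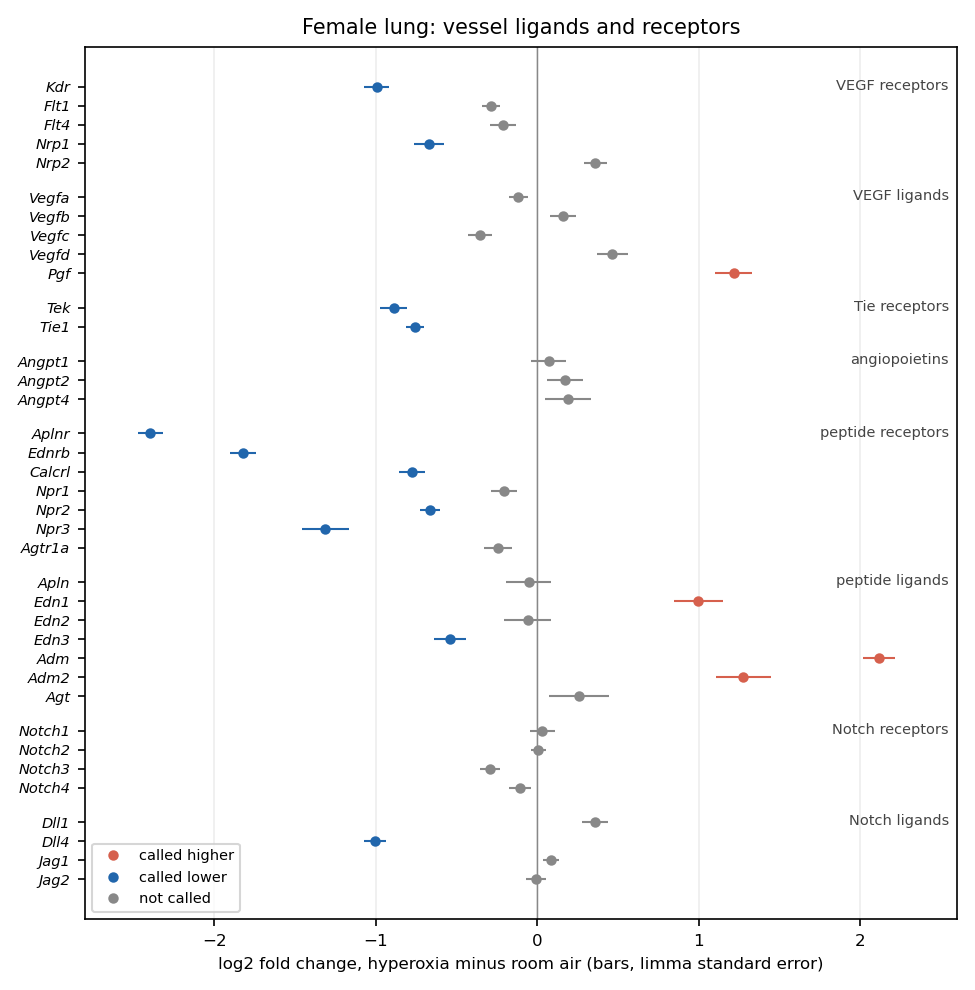
Difference of mean log2 level, hyperoxia minus room air (x axis, bars are limma standard errors) of vessel receptors and ligands grouped by family, red called higher, blue called lower, grey not called. Receptors such as Aplnr (-2.40), Ednrb (-1.82) and Kdr (-0.99) lie to the left, while Adm (2.12), Adm2 (1.28), Pgf (1.22) and Edn1 (1.00) lie to the right.

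Of 47 matrix proteases and inhibitors 14 were higher and 4 lower, with a median of 0.02, and in the plasminogen system 3 of 5 were higher. Of 16 metalloproteinases 3 were higher and 2 lower. Plaur, the urokinase receptor, read 9.28, 9.37 and 9.39 in room air and 10.69, 10.72 and 10.80 in hyperoxia (1.39, standard error 0.07, adjusted p = 1.32e-06), and Plau and Plat, the plasminogen activators, rose by 1.20 and 0.91. Mmp19 rose by 1.60 and Mmp3, stromelysin, by 1.23, while Mmp11 fell by 0.86 and the gelatinases Mmp2 and Mmp9 were at -0.03 and -0.29 without a call. Serpina3n, an inhibitor of serine proteases, rose by 1.64. Of 47 matrix proteins other than collagens 10 were higher and 5 lower, with hyaluronan and provisional matrix genes among the rises. Vcan, versican, rose from 8.63, 8.11 and 8.47 to 9.82, 9.60 and 9.63 (1.28), Tnfaip6, which links hyaluronan chains, by 0.87, Has2, a hyaluronan synthase, by 0.77 and Lox, which crosslinks elastin and collagen, by 1.06. Thbs1, thrombospondin 1, rose by 1.65 and its relative Thbs3 fell by 0.92. On the anticoagulant side Thbd, thrombomodulin, fell from 12.22, 12.27 and 12.36 to 11.37, 11.39 and 11.50 (-0.87) and Procr, the protein C receptor, rose by 0.70.

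Of 54 BMP and TGF-beta genes 5 were higher and 3 lower. Fst, follistatin, which traps activin, rose from 8.48, 8.31 and 8.28 to 9.39, 9.54 and 9.48 (1.12), Bmp2 by 0.81 and Fstl3 by 0.77, and Bmp6 and Bmp5 fell by 0.69 and 0.58. None of the 12 receptors and none of the 15 SMADs and target genes was called, with ranges of -0.37 to 0.24 and -0.47 to 0.42. Of stromal markers, 1 of 20 fibroblast genes was higher and 3 lower. Plin2, a lipid droplet protein also made by macrophages, rose by 0.96 and Wnt2, a Wnt ligand of lung fibroblasts, fell by 0.80. Of 18 smooth muscle and pericyte markers 3 were higher and 2 lower, with a median of 0.07 and values from -0.84 to 0.93. Among the rises Tagln, transgelin, had 0.93.

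Of 38 iron, heme and metallothionein genes 9 were higher and 2 lower, with 3 higher of 16 iron genes, 3 higher and 2 lower of 13 heme genes and 3 higher of 9 metallothionein and zinc genes. Slc40a1, the iron exporter ferroportin, read 8.17, 8.18 and 8.17 in room air and 9.18, 9.14 and 9.20 in hyperoxia (1.00, standard error 0.05, adjusted p = 1.32e-06), and Slc39a14, an importer of zinc and iron, rose by 0.99. Cpox, of heme synthesis, rose by 0.81 and Alas2, the erythroid start of that pathway, fell by 0.66. Alas2 is also 1 of 5 red cell genes, 2 of them lower, whose mean was 8.42 to 8.60 in room air and 8.03 to 8.31 in hyperoxia, and the part of red cell content in its fall was not tested. Of 33 glycolysis genes 5 were higher and 1 lower. Slc2a1, the glucose transporter GLUT1, rose from 10.47, 10.37 and 10.50 to 11.39, 11.50 and 11.42 (0.99), Slc16a1, a lactate carrier, by 0.72 and Pfkfb3, an activator of phosphofructokinase, by 0.60, and Ldha was at -0.02. In retinoid metabolism 2 of 21 were lower and 0 higher, with Lrat, which stores retinol as ester, going from 10.81, 11.16 and 10.96 to 9.32, 8.67 and 8.82 (-2.04, standard error 0.17).

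The male arrays share no sample with the female ones, but both were fitted together with a shared estimate of the spread. In males 33 of 40 amino acid response genes and 23 of 37 NRF2 targets were called higher. These were the pathway lists with the highest shares called higher in females (77.5% and 59.5%). The share of all genes called in males is not given here, so the male counts have no background beside them. The interaction of treatment and sex called 0 of 35556 clusters in limma, with 516 at an unadjusted p under 0.05. The 5 called female genes with the smallest interaction p were Sytl5, Slc40a1, Itih4, Ccl17 and Bace2. Sytl5, a RAB27 effector of vesicle traffic, changed by 1.09 on the log2 scale in females against 0.58 in males, Itih4, an acute phase protein, -1.30 and -0.87, and Bace2, an aspartyl protease, -0.61 and -0.15. Ccl17, a chemokine of dendritic cells, had 1.63 and 0.97 and Slc40a1 had 1.00 and 0.71. None passed adjustment, so a difference between the sexes was not shown for any of them.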

How the data were processed

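Affymetrix Mouse Gene 1.0 ST arrays had measured lung RNA from 3 pools of females in hyperoxia and 3 in room air. The authors deposited 1 table of log2 expression values for 35556 transcript clusters, normalized by robust multi-array average (RMA), with a software version that the sources used here do not give. These values were used without a further filter, and arrays give no read depth, so their number limits the precision. Symbols came from GEO's platform annotation, updated through RefSeq names, and 21789 clusters had 1 symbol, 1621 had several and 12146 were not listed. A gene with several clusters was read from the one with the highest mean over the 12 arrays.

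A model of the 4 group means over all 12 arrays was fitted with limma 3.58.1 in R 4.3.3 with eBayes moderation, and p-values were adjusted by Benjamini-Hochberg over all clusters. Calls needed a fold change of 1.4 or more together with an adjusted p under 0.05. The p-values measure the spread between pools. Pools of the same replicate number deviated together in every pair (correlations of 0.283, 0.698 and 0.465), although room air 3 correlated best with hyperoxia 1, and the fit with the number as a block was run as an alternative. Further alternatives were other moderation, normalization, thresholds and filters, covariates for squamous epithelium and heart muscle, and leaving out arrays. The script was checked on simulated data.

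Genes were named by rule: the 20 largest rises and falls without overlap that the study does not name, the 10 called genes at the highest levels in each direction, the called members with the largest change in each list, and the 5 called genes with the smallest interaction p. Other genes named were chosen after their values were seen, among them the microRNA and Gbp genes. The lists and the genes in them were chosen with earlier results of these data known. Promoter and microRNA sequences are from RefSeq on GRCm38.p6.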

Additional observations from a re-analysis of the deposited data

How the results depend on the processing

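For the female comparison the count of clusters called was 2318, of which 1275 were higher and 1043 lower. It was 6293 (3228 higher and 3065 lower) with no fold threshold, 376 (210 and 166) at a fold change of at least 2, and 514 (318 and 196) with limma's treat at a fold of 1.4. Leaving out 1 female array at a time gave 2174 to 2434 called, 1129 to 1391 higher and 997 to 1073 lower, and leaving out 1 male array gave 2272 to 2364 called. With the replicate number as a block 2236 were called, 2228 of them shared, and with the block within each sex, an alternative chosen after seeing the data, 2388. Among the 360 named genes the plain replicate block ended the calls of Bpifb1 and Clec9a and called Ccr2, and it changed no other call, and the block within each sex ended that of Bpifb1 and called Ccr2. Centring arrays on their median moved the share of higher calls from 55.0% to 62.4% and ended 14 named calls. Without the pools numbered 1, also chosen after seeing the data, 20 named calls were lost. Of 292 named genes called, 37 lost the call in some setting and none changed sign. Of 68 named genes not called, 32 changed sign in some setting, with main log2 fold changes of at most 0.18 in size, and none of these was called there. The interaction with sex called 0 clusters in each fit that was run for it. The pools, 3 in each group, limit what small differences can be told, and values near the bottom of the range, such as Il6 in room air, limit the fold change that can be read.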

Other observations

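Other called genes showed changes outside the lists described above. Nrep, a regulator of fibroblast contraction, fell by 1.45 on the log2 scale, and Slc5a12, a sodium-coupled lactate transporter, fell by 1.46. Traf1, an adaptor of TNF receptors, fell by 1.41. Phospho1, a phosphatase of mineralizing tissue, rose by 1.76 and Ddias, an inhibitor of apoptosis after DNA damage, rose by 1.79. Rbm3, an RNA-binding protein induced by cold, rose by 0.67, and Actn4, an actinin that bundles actin, rose by 0.64.

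Other lists held few called members, where 4.75% of all genes were higher and 3.67% lower. Of 30 prostaglandin and leukotriene genes 1 was higher and 2 were lower, and of 25 coagulation and platelet genes 2 were higher and 1 was lower. None of 7 platelet glycoproteins was called. Of 13 sex steroid receptors and X or Y markers none was called, and the 5 receptors ranged from -0.42 to -0.02.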
